A study of Homo sapiens with 6 samples.

Results

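Polycomb group and BET (bromodomain and extra-terminal) genes were followed in 22RV1 cells given bruceantin (BCT), as 8 named genes of 26255 listed in the files: EZH1, EZH2, SUZ12, EED, BMI1, RING1, BRD2 and BRD3. They were chosen by name as members of these chromatin complexes, and all 8 passed the filter of a mean of at least 1 FPKM (fragments scaled by transcript length and library size) across samples. 22RV1 is a human castration-resistant prostate cancer cell line. RNA was sequenced from 6 samples of these cells grown in medium with full serum, 3 treated with the solvent DMSO and 3 with 10 nM BCT, a plant quassinoid, each for 24 h. The sources do not say whether the 3 samples of a group came from separate cultures, so p-values measure only the spread between these samples.

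Polycomb repressive complex 2 (PRC2) methylates histone H3 at lysine 27 through EZH2 or its paralog EZH1, and needs SUZ12 and EED for its activity and assembly. Polycomb repressive complex 1 (PRC1) ubiquitinates histone H2A through RING1 or its paralog RNF2, each paired with one of the PCGF proteins, of which BMI1 (also called PCGF4) is one. BET proteins bind acetylated histones through paired bromodomains and help to recruit the elongation kinase P-TEFb to promoters. EZH2 is often abundant in advanced prostate cancer.

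After BCT, on the deposited scale, BRD2 mRNA was 2.57-fold higher and BRD3 mRNA fell to 0.482 of its DMSO level. The 6 Polycomb genes changed there by less than the fold threshold in either direction. EZH2 and SUZ12 had lower FPKM with BCT on the deposited scale, and EZH1, EED, BMI1 and RING1 had higher FPKM. The direction of EZH2 and SUZ12 turned when samples were rescaled to equal FPKM sums. For EZH2 it did not turn when 1 row, MIR6087, was left out of the sum (-0.17). With equal sums EZH1 (1.13), EED (1.23), BMI1 (1.43) and RING1 (0.92) were past the fold threshold, where the median of all genes was 0.720. Without MIR6087 in the sum only BMI1 (1.05) of these was past it. A gene was called when the absolute log2 fold change (BCT minus DMSO, on log2(FPKM + 0.1)) was above 0.85 and the false discovery rate (FDR, limma with Benjamini-Hochberg adjustment over 12729 genes) was under 0.05. Below, "rose" and "fell" are used of genes past the FDR threshold and "called" of genes past both. Of the 8 genes, 1 was called lower (BRD3) and 1 higher (BRD2), against 17.8% of all tested genes called lower and 13.9% called higher. By FDR alone 3 of the 8 fell and 5 rose, where 42.8% of all genes fell and 39.3% rose. The DMSO and BCT samples did not overlap for any of the 8, with BCT below DMSO for 3 and above it for 5, which also held for 44.3% (below) and 41.0% (above) of all tested genes. The median log2 change of the 8 genes was 0.260, beside -0.038 over all genes.

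**Figure D1:**
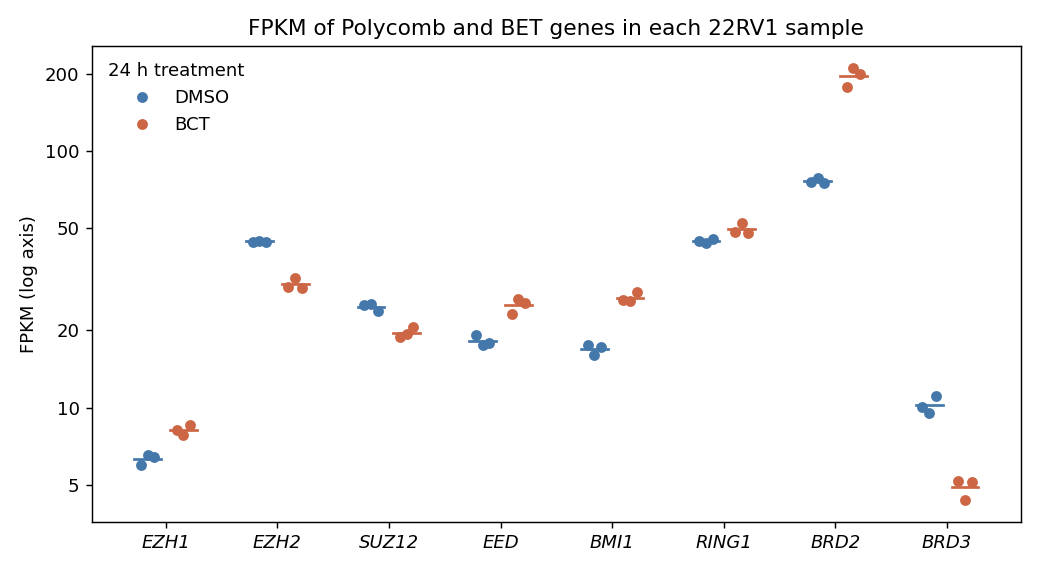
FPKM (log axis) of each of the 8 genes in every sample, with DMSO in blue and BCT in orange and a line at each group mean. The BCT points of BRD2 lie between 177 and 211 FPKM, above its DMSO points, and those of BRD3 between 4.36 and 5.16, below them.

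The files showed a strong contrast between the groups as a whole. Along a first principal component with 72.0% of the variance, DMSO samples lay from -57.7 to -54.3, BCT replicate 1 at 40.2 and the other BCT samples at 63.8 and 65.0. Summed FPKM was 1169649 to 1572321 with DMSO and 757534 to 799838 with BCT, and one row, MIR6087, took 43.5% to 55.3% of the sum with DMSO and 31.7% to 32.5% with BCT. Rescaling every sample to equal sums therefore raised the median log2 change of all genes to 0.720, and to 0.344 when MIR6087 was left out of the sum. Under these rescalings 10.6% and 26.4% of the called genes were lower with BCT, against 56.2% on the deposited scale. Counts of reads are not held by FPKM files, and relative depth, read from the steps between low values, was 0.878 to 1 with DMSO and 1.051 to 1.139 with BCT. Luminal markers such as KRT18 (333 to 341 FPKM with DMSO) were present, and of 8 markers of stromal, immune and endothelial cells 6 stayed under the filter. The summed FPKM of those 8 markers was 3.65 to 4.82 with DMSO and 11.3 to 14.7 with BCT, of which COL1A1 and CD68 made up most, while PTPRC and PECAM1 were at or near 0. The part of these markers in the results below was not tested.

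Among the PRC2 core genes, EZH2 and SUZ12 fell while EED and EZH1 rose on the deposited scale, and under rescaling to equal FPKM sums the sign of EZH2 and SUZ12 turned while both stayed under the median of all genes. EZH2, the main catalytic subunit in dividing cells, lies on the minus strand at chr7:148504349-148581413 (GENCODE on GRCh37, the build of the files). It measured 44.4, 44.7 and 44.1 FPKM in the DMSO samples and 29.4, 32.0 and 29.1 FPKM in the BCT samples. All BCT samples were lower than all DMSO samples, and the DMSO samples differed by little. The mean went from 44.4 ± 0.332 to 30.2 ± 1.61 FPKM (SD, n = 3 per group). The log2 change was -0.56, with a standard error (SE) of 0.053 and a limma adjusted p of 1.84e-05, short of the fold threshold. RNA from bulk cells was measured, so fewer cells of a type and less RNA per cell cannot be told apart. With equal FPKM sums the change of EZH2 was 0.21, against a median of 0.720 over all genes.

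EZH1, the less active paralog that prevails in resting cells, lies on the minus strand at chr17:40852293-40897067. Its level was 5.97, 6.52 and 6.39 FPKM with DMSO and 8.15, 7.80 and 8.52 FPKM with BCT. Every BCT sample was above every DMSO sample. The mean rose from 6.30 ± 0.288 to 8.16 ± 0.361 FPKM (log2 change 0.37, SE 0.064, limma adjusted p = 0.000718), which was not called on the deposited scale.

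FPKM is per length, so the paralogs can be set against each other within a sample, free of any scaling factor of that sample. The ratio of EZH2 to EZH1 was 7.43, 6.86 and 6.89 in the DMSO samples and 3.61, 4.11 and 3.42 in the BCT samples. It was thus 1.90 times higher with DMSO, a difference of -0.92 in log2 ratio, and the groups did not overlap (exact permutation test, two-sided, p = 0.10, the smallest that 3 samples against 3 can give). As EZH2 fell and EZH1 rose without overlap, the ratio had to separate, so this test adds nothing to the values of each gene. EZH1 made up 11.9% to 12.7% of the summed EZH1 and EZH2 FPKM with DMSO and 19.6% to 22.6% with BCT.

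SUZ12, the scaffold of PRC2, lies on the plus strand at chr17:30264026-30328057. It measured 25.1, 25.3 and 23.8 FPKM with DMSO and 18.9, 19.4 and 20.6 FPKM with BCT. The BCT samples were all lower, and the mean went from 24.7 ± 0.836 to 19.6 ± 0.863 FPKM (log2 change -0.33, SE 0.055, limma adjusted p = 0.000521), not called. Rescaling to equal FPKM sums turned this to 0.43, and to 0.053 without MIR6087 in the sum, both under the median of all genes there. SUZ12 has a pseudogene copy, SUZ12P1, with 7.71, 7.38 and 9.26 FPKM in the DMSO samples and 7.46, 7.31 and 7.87 FPKM in the BCT samples. These groups overlapped (log2 change -0.10, limma adjusted p = 0.332). Of the 4396 stretches of 100 bases in the SUZ12 transcript, 160 (3.64%) also occur in SUZ12P1, so reads there could be counted for either. The sum of both rows was 32.8, 32.7 and 33.0 FPKM with DMSO and 26.4, 26.7 and 28.4 FPKM with BCT, again without overlap. SUZ12 made up most of each sum, and FPKM is per length, so the sum cannot show how shared reads were assigned.

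EED, which reads the methylated lysine 27 and stimulates the enzyme, lies on the plus strand at chr11:85912254-85989855. Its values were 19.1, 17.6 and 17.8 FPKM with DMSO and 23.2, 26.6 and 25.5 FPKM with BCT. The BCT samples were all higher, opposite to EZH2 and SUZ12. The mean rose from 18.2 ± 0.825 to 25.1 ± 1.71 FPKM (log2 change 0.46, SE 0.066, limma adjusted p = 0.000209), not called on the deposited scale.

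The core subunits therefore shifted against each other. The ratio of EED to SUZ12 was 0.762, 0.694 and 0.751 with DMSO and 1.23, 1.37 and 1.24 with BCT, a log2 difference of 0.79. EZH2 stood at 2.32, 2.55 and 2.47 times EED with DMSO and at 1.27, 1.21 and 1.14 times with BCT (log2 difference -1.02). Against SUZ12 the shift was smaller, from 1.77, 1.77 and 1.86 to 1.56, 1.66 and 1.42 (log2 difference -0.22). None of these 3 ratios overlapped between the groups (exact permutation p = 0.10 each, also after adjustment over all 8 ratios computed). For EED to SUZ12 and EZH2 to EED this follows from the opposite directions of the genes, so the test adds nothing to the values of each gene. Apart from EZH2 to EZH1 and BRD2 to BRD3, the ratios were chosen after the values were seen.

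The promoters of 3 of the 8 genes hold an E2F-type motif, shown here because E2F factors are known to drive EZH2 and because E2F1, E2F2 and E2F3 fell with BCT. The letters searched were TTTCCCGC, TTTCGCGC, TTTGCCGC and TTTGGCGC on both strands of RefSeq promoter windows (GRCh38.p14, 250 bases before to 50 after each start, 300 in all), and a window with any of them counted once. The 8 genes have 13 windows, and 3 of these hold a match, 1 each for EZH1, EZH2 and SUZ12. Each stretch of 30 bases reads 5′ to 3′ on the strand of its gene, with the motif in capitals. EZH1 (minus strand, chr17:42745137-42745166) carries TTTGCCGC on the opposite strand with its first base at -115 from the start. EZH2 (minus strand, chr7:148884283-148884312) carries TTTGGCGC at 2 and SUZ12 (plus strand, chr17:31936807-31936836) carries TTTCCCGC at -189.
EZH1: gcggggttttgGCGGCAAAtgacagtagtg
EZH2: cgatggcgattgggctgccgcgTTTGGCGC
SUZ12: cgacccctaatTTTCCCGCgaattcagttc

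Such a motif occurs in 3.31% of all 35116 windows and in at least one window of 6.78% of the 9455 tested genes that have one. On the deposited scale EZH1 rose while EZH2 and SUZ12 fell, and the part of E2F in these changes was not tested. In a list of 10 E2F and DNA replication genes, written with earlier results of these data known, 9 had a window and 8 of them held a match. All 10 of these genes were called lower, with a median log2 change of -1.885. They include CDC6 (-2.18) and MCM3 (-2.13), which license and unwind replication origins, E2F1 (-2.08) and E2F2 (-1.91), and the replication clamp PCNA (-2.01). The summed FPKM of the list was 890 to 939 with DMSO and 233 to 282 with BCT. EZH2 and SUZ12 changed by less than any of the 10, whose range was -2.181 to -1.263, and the part of proliferation in their change was not tested.

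Among the PRC1 genes, BMI1 and RING1 rose with BCT. BMI1, which pairs with a RING protein in canonical PRC1, lies on the plus strand at chr10:22610028-22620413. It measured 17.6, 15.96 and 17.2 FPKM with DMSO and 26.2, 26.1 and 28.1 FPKM with BCT. The BCT samples were all higher, by more than the spread in either group. The mean rose from 16.9 ± 0.843 to 26.8 ± 1.11 FPKM (log2 change 0.66, SE 0.059, limma adjusted p = 1.20e-05), and it was not called on the deposited scale. On the deposited scale this was the largest change of the 6 Polycomb genes, but with a correction for GC content and length EZH2 changed more (-0.69) than BMI1 (0.54).

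BMI1 shares 22.8% of its exon bases with the readthrough gene COMMD3-BMI1, which runs from its upstream neighbour COMMD3 on the same strand. The readthrough had 0.186, 1.82 and 0.202 FPKM in the DMSO samples and 2.07, 2.70 and 3.63 FPKM in the BCT samples. DMSO replicate 2 stood far above the other DMSO samples, though under all BCT samples (log2 change 2.37, SE 0.67, limma adjusted p = 0.0102). The readthrough averaged 0.737 FPKM with DMSO and 2.80 with BCT, so it passed the filter only through the BCT samples. DMSO replicates 1 and 3 lay near the pseudocount of 0.1, on which the size of this change depends. BMI1 and the readthrough summed to 17.8, 17.8 and 17.4 FPKM with DMSO and to 28.3, 28.8 and 31.7 FPKM with BCT, and all BCT samples were again higher. BMI1 made up most of each sum, which cannot show how shared reads were assigned. COMMD3 itself went from 63.0 to 112.5 FPKM, a log2 change of 0.84, just under the fold threshold. The listed interval of BMI1 spans 15103 bases against 10386 for the gene on GRCh37, and it overlaps that of COMMD3. How reads in that overlap were counted is not given in the sources used here.

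RING1, a catalytic subunit of PRC1, lies on the plus strand at chr6:33176277-33180499 in the extended histocompatibility region. Its values were 44.6, 43.7 and 45.2 FPKM with DMSO and 48.5, 52.2 and 47.7 FPKM with BCT. The groups did not overlap, and the fold between the means was the smallest of the 8 genes. The mean went from 44.5 ± 0.773 to 49.5 ± 2.41 FPKM (log2 change 0.15, SE 0.052, limma adjusted p = 0.0239). This rise did not hold at an FDR of 0.05 without DMSO replicate 1 (0.15, adjusted p = 0.0597), without DMSO replicate 2 (0.14, adjusted p = 0.0769) or without BCT replicate 2 (0.11, adjusted p = 0.0880) by limma. With equal FPKM sums the log2 change of RING1 was 0.92, against a median of 0.720 over all genes. Without MIR6087 in the sum it was 0.54, against a median of 0.344. RNF2, the paralog with the higher activity in most cells, measured 10.3, 8.92 and 8.94 FPKM with DMSO and 12.1, 13.3 and 14.6 FPKM with BCT. All BCT samples of RNF2 were higher (log2 change 0.50, SE 0.087, limma adjusted p = 0.000701), not called on the deposited scale. RING1 was 4.33, 4.90 and 5.05 times RNF2 with DMSO and 4.02, 3.93 and 3.27 times with BCT (log2 difference -0.35, exact permutation p = 0.10).

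The 6 PCGF genes, which decide the type of PRC1, summed to 99.1, 99.6 and 99.7 FPKM with DMSO and to 160.5, 185.5 and 178.5 FPKM with BCT. PCGF1, the subunit of a variant PRC1 with the corepressor BCOR, accounted for most of the difference. It measured 22.0, 22.8 and 22.1 FPKM with DMSO and 76.6, 103.5 and 92.5 FPKM with BCT, a called rise (log2 change 2.01, SE 0.099, limma adjusted p = 9.52e-07). PCGF1 went from 22.2% to 22.9% of the PCGF sum with DMSO to 47.7% to 55.8% with BCT. The share of BMI1 was 16.02% to 17.8% with DMSO and 14.1% to 16.3% with BCT, so these ranges overlapped although its own level rose. Against PCGF2, its nearest relative, BMI1 went from 0.776, 0.709 and 0.710 times to 1.36, 1.47 and 1.56 times (log2 difference 0.99, exact permutation p = 0.10). PCGF2 fell without overlap (log2 change -0.33) while BMI1 rose, so this test could not have come out otherwise.

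**Figure D2:**
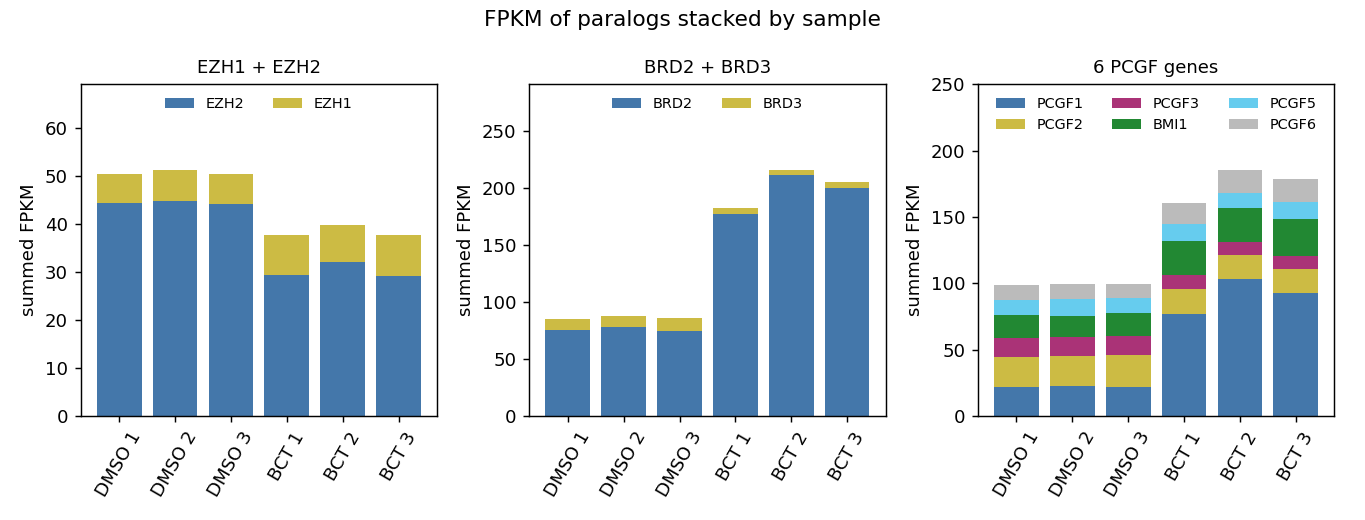
Summed FPKM (deposited scale) of paralogs in each sample, stacked for EZH1 and EZH2, for BRD2 and BRD3, and for the 6 PCGF genes. EZH1 takes 19.6% to 22.6% of its sum with BCT against 11.9% to 12.7% with DMSO, and the BRD2 and PCGF1 blocks are larger with BCT.

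BRD2 and BRD3 changed in opposite directions. BRD2, a BET protein with roles in cell cycle genes and chromatin boundaries, lies on the plus strand at chr6:32936371-32949282, within the histocompatibility region. It measured 75.3, 78.1 and 74.7 FPKM with DMSO and 177, 211 and 199.7 FPKM with BCT. The lowest BCT sample, replicate 1, was still more than 2-fold above every DMSO sample. The mean rose from 76.1 ± 1.84 to 196 ± 17.5 FPKM (log2 change 1.36, SE 0.069, limma adjusted p = 1.03e-06). Of all tested genes, 705 had a higher log2 change, and 13.2% had a larger absolute one. BRD2 was called higher under each of the 22 alternatives computed, with log2 changes of 1.304 to 2.13.

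The files list BRD2 and RING1 on alternative haplotype contigs of chromosome 6 and not on the main assembly, and the listed interval of BRD2 spans 62856 bases against 12912 for the gene on GRCh37. How reads that match several haplotype copies were counted is not given in the sources used here. The 228 genes listed on such contigs include 105 tested ones, with 13 called lower, 17 called higher and a median log2 change of 0.040, beside -0.038 over all genes. BRD2 also shares 6.41% of its exon bases with a lncRNA and 0.611% with HLA-DMA, both on the opposite strand, and 2.7% with a lncRNA on its own strand. The library kit does not mark strand, so reads there cannot be told apart.

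BRD3, the BET paralog known for binding acetylated GATA1, lies on the minus strand at chr9:136895427-136933657. Its level was 10.0, 9.55 and 11.1 FPKM with DMSO and 5.16, 4.36 and 5.13 FPKM with BCT. All BCT samples were lower. The mean fell from 10.2 ± 0.788 to 4.88 ± 0.450 FPKM (log2 change -1.05, SE 0.088, limma adjusted p = 8.83e-06), and 1642 of the tested genes had a lower change. The call was lost when limma tested the change against the fold threshold itself (adjusted p = 0.115) and under both rescalings, to -0.30 with equal FPKM sums against a median of 0.720 over all genes.

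BRD3 shares 18.6% of its exon bases with BRD3OS on the opposite strand, listed in the files under the older symbol LINC00094. That row was 5.19, 4.76 and 5.01 FPKM with DMSO and 3.53, 2.63 and 2.76 FPKM with BCT. Its BCT samples were all lower (log2 change -0.74, limma adjusted p = 0.000340), and without strand the reads of the shared bases cannot be told apart. Both rows summed to 15.2, 14.3 and 16.1 FPKM with DMSO and 8.68, 6.99 and 7.89 FPKM with BCT. BRD3 made up most of each sum, which cannot show how shared reads were assigned.

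The testis BET gene BRDT was at or near 0 in all samples and was not tested. The ratio of BRD2 to BRD3 was 7.50, 8.18 and 6.73 with DMSO and 34.3, 48.4 and 39.0 with BCT, 5.33-fold higher (log2 difference 2.41). The groups did not overlap (exact permutation p = 0.10). This follows from the opposite directions of BRD2 and BRD3, so the test adds nothing to the values of each gene. BRD3 made up 10.9% to 12.9% of the summed BRD2 and BRD3 FPKM with DMSO and 2.02% to 2.84% with BCT.

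**Figure D3:**
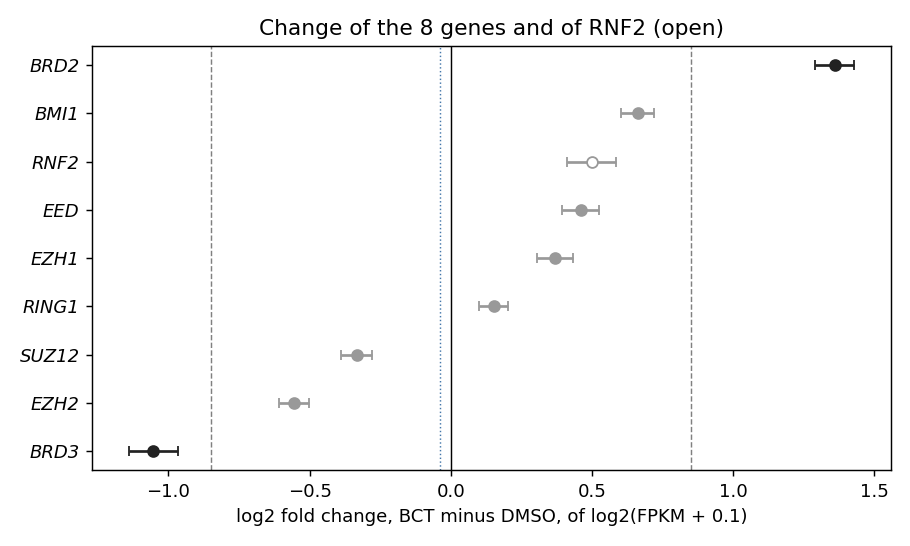
Log2 fold change (BCT minus DMSO, deposited scale) with SE for the 8 genes (filled) and the RING1 paralog RNF2 (open), in black where called. Dashed lines mark the fold threshold of 0.85 and the dotted line the median of all genes at -0.038, and only BRD2 (1.36) and BRD3 (-1.05) lie beyond the dashed lines; with equal FPKM sums EZH2 (0.21) and SUZ12 (0.43) turn sign.

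The order of levels changed between the groups. With DMSO it ran from BRD2 through RING1, EZH2, SUZ12, EED, BMI1 and BRD3 to EZH1, where RING1 and EZH2 overlapped, as did EED and BMI1. With BCT it ran BRD2, RING1, EZH2, BMI1, EED, SUZ12, EZH1 and BRD3, and BMI1 and EED overlapped. BRD3 thus went from above EZH1 to below it, and SUZ12 from above EED and BMI1 to below both.

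The genes around these complexes were described from lists, beside the background of 17.8% lower and 13.9% higher. Of 50 Polycomb partners, 48 were tested, with 8 called lower and 8 higher (16.7% each) and a median log2 change of -0.114. Of the 10 PRC2 accessory genes, 4 were called lower and 2 higher. The lower ones include both histone-binding subunits, RBBP4 at -1.45 (from 39.6 to 40.2 FPKM with DMSO to 13.4 to 16.2 with BCT) and RBBP7 at -1.25, and PHF19 (-1.40), a Polycomb-like recruiter. EPOP, listed as C17orf96, also fell (-1.20). LCOR rose (1.33), as did the PRC2 inhibitor EZHIP, listed as CXorf67 (1.27). EZHIP averaged 0.545 FPKM with DMSO and 1.51 with BCT, so it passed the filter only through the BCT samples. With a pseudocount of 1 the change of EZHIP was 0.68 and its call was lost, as in the limma test against the fold threshold. JARID2, a PRC2 cofactor, was not past the FDR threshold (-0.12, limma adjusted p = 0.264), and its groups overlapped.

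Of the other 29 PRC1 genes, 28 were tested, 3 were called lower and 4 higher. The chromobox genes CBX2 (-2.15) and CBX7 (-1.99), readers of methylated lysine 27 in canonical PRC1, were called lower, as was AUTS2 (-1.77). CBX8, a chromobox gene of the same family, rose without being called (0.42). Higher were PCGF1, PHC3 (1.70) and both RYBP (1.48) and YAF2 (1.13), the alternative subunits that define variant PRC1. In the limma test against the fold threshold the call of YAF2 was lost. Of 11 genes of the deubiquitinase complex PR-DUB, which removes the mark that PRC1 sets, 10 were tested. KDM1B (-1.09) was called lower, and ASXL2 (1.32) and MBD5 (1.06) higher, the last a call lost with a pseudocount of 1 or a correction for GC content and length. The call of KDM1B was lost under both rescalings (-0.33 with equal FPKM sums and -0.71 without MIR6087). BAP1, the catalytic subunit of PR-DUB, was not called (-0.35 on the deposited scale).

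Of the other 40 bromodomain genes, 35 were tested, with 2 called lower (5.71%) and 10 higher (28.6%) and a median of 0.469. The 10 include BAZ2B, at 0.124 FPKM with DMSO, which passed the filter only through BCT replicates 2 and 3. At an FDR of 0.01, 9 were called higher. ATAD2, a cofactor of E2F, was lower (-1.22), as was the acetyltransferase KAT2A (-1.07). ATAD2B, the paralog of ATAD2, was higher (1.80), with the acetyltransferases CREBBP (1.64) and EP300 (1.60) and the remodelling subunit BPTF (1.40). All 9 genes of P-TEFb and of BET partners rose by FDR, with a median of 0.657, and in all 9 the BCT samples lay above the DMSO samples, where 39.3% of all genes rose by FDR and 41.0% lay above. The P-TEFb inhibitor HEXIM1 (0.93) and the BET partner JMJD6 (1.16) were called, while the kinase CDK9 rose from 15.9 to 22.9 FPKM without a call (0.52). The call of HEXIM1 was lost in the limma test against the fold threshold. The list mixes P-TEFb genes with an inhibitor of P-TEFb, so its median is not that of P-TEFb alone.

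Genes known to respond to BET inhibitors or to EZH2 were also read. Of 6 BET inhibitor response genes, 5 were tested. MYC (-2.18) and BCL2 (-1.60), which BET inhibitors lower in many cells, were called lower. Of the genes that they raise, HEXIM1, which is also in the P-TEFb list above, was called higher. HIST2H2BE rose without a call (0.29), but SERPINI1 was called lower (-0.93, a call lost with a pseudocount of 1). Of the 9 genes that EZH2 is known to repress, 7 were tested, with 2 called lower, among them CDKN1C (-1.40), and 1 called higher, CDKN2B (1.20, a call lost with a pseudocount of 1). Of the demethylases that remove methylation from lysine 27, KDM6A was called higher (0.91), a call lost under 6 of 22 alternatives, at 0.85 without BCT replicate 2 or 3 and at 0.58 with a correction for GC content and length, and KDM6B rose without a call (0.59).

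For each of the 8 genes, the tested genes with the most similar profile were taken as those with the smallest root mean square (RMS) difference of log2 values over the 6 samples, each gene centred on its DMSO mean. EZH2 was nearest to MAGED1 (RMS 0.0234), C11orf95 and NIF3L1, and SUZ12 to the cohesin gene SMC3 (0.0159), RAB2A and CBFB. EED lay next to ZFP90 (0.0122), NGDN and ORC5, and EZH1 next to FAN1 (0.0157), SMAD3 and PPP1R9A. BMI1 was nearest to NUAK1 (0.0147), IRS1 and IKZF5, and RING1 to COQ9 (0.0208), MRPL27 and PHF23. NUAK1 averaged 0.809 FPKM with DMSO, so it passed the filter only through the BCT samples. BRD2 had MTO1 (0.0208), SNW1 and SRFBP1 as neighbours, and BRD3 had C10orf95 (0.0453), FKBP2 and RGS12. None of these 24 genes is another of the 8, and the measure says nothing of shared control.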

How the data were processed

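RNA of 22RV1 cells was sequenced with the TruSeq v2 kit, which does not mark strand, as paired-end reads. Per the study's methods and the submitters' processing notes, the authors trimmed reads with Trimmomatic 0.38, aligned them to hg19 with HISAT2 and assembled them with StringTie. The notes also name HTSeq and CASAVA without a role, and the gene annotation is not given in the sources used here. The deposited values are FPKM, 1 file per sample, with no counts, so a log-scale model was used and no count test.

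Genes whose mean over the 6 samples reached 1 FPKM entered limma 3.58.1 (R 4.3.3, eBayes with trend) on log2(FPKM + 0.1), with Benjamini-Hochberg adjustment over 12729 genes. A gene was called at FDR under 0.05 and absolute log2 fold change above 0.85. The pseudocount understates changes of low genes. The filter used all samples, so a gene could pass it through 1 group alone. Among the named genes, EZHIP, BAZ2B, COMMD3-BMI1, CDKN2B and NUAK1 averaged under 1 FPKM with DMSO, and CBX2 and AUTS2 with BCT. The fit was tested on simulated data with known changes. Ratios of paralogs were compared by exact permutation over samples. Gene positions come from GENCODE on GRCh37 and promoter windows from RefSeq on GRCh38.p14.

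The 8 genes and the gene lists were chosen with earlier results of these data known. Lists were written from general knowledge, and 3 of their genes were found in the files under an older symbol. Named are the 8 genes, RNF2, at most 5 called genes in each direction from each list, and the 3 most similar profiles for each of the 8. SUZ12P1, COMMD3, COMMD3-BMI1 and LINC00094 are named for shared sequence, and the uncalled genes of the lists, such as CBX8 or CDK9, after their values were seen. Some genes that this rule names are not reported here. Alternatives changed the pseudocount, filter, scaling, variance model, thresholds and replicate block and left out each sample. A correction for GC content and length was added after the data were seen.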

Additional observations from a re-analysis of the deposited data

How the results depend on the processing

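Of 176 alternative results for the 8 genes, 159 kept direction and call, 11 gained a call, 3 lost one and 3 turned sign. Of 976 for 45 other named genes, 924 were the same, 47 lost and 5 gained a call. Without MIR6087 in the sum SUZ12 turned to 0.053, while EZH2 stayed lower at -0.17. With equal FPKM sums EZH2 turned to 0.21 and SUZ12 to 0.43. Members called lower and higher were then 0 and 5 (EZH1, EED, BMI1, RING1 and BRD2), Polycomb partners 3 and 20 and other bromodomain genes 0 and 24. Without MIR6087 in the sum, 0 and 2 members, 13 partners (higher) and 0 and 18 bromodomain genes were called. Over all genes, 2263 were called lower and 1764 higher, against 668 and 5614 with equal sums and 1208 and 3370 without MIR6087. By FDR alone 3 and 5 members, 23 and 19 partners and 8 and 23 bromodomain genes were called (5453 and 4997 of all genes). The limma test against the fold threshold called 0 members lower, 5 partners higher, and 1 and 5 bromodomain genes lower and higher (1392 and 1033 of all genes). The cause of these shifts, beyond the scaling or threshold itself, was not tested. Leaving out 1 sample moved BRD2 between 1.304 and 1.43 and BRD3 between -1.10 and -0.98, and no member or list count by over 1.5 times. The GC and length correction covered 12430 genes and moved EED from 0.46 to 0.28, RING1 from 0.15 to 0.36, SUZ12 from -0.33 to -0.50 and EZH2 from -0.56 to -0.69, with no call of a member changed. Same-numbered samples deviated together by correlations of 0.116, 0.033 and 0.034, so the numbers were not taken as pairs; not every sample correlated best with its own number. With a replicate block 1 member was called lower and 1 higher, as without it (2266 and 1767 of all genes), and the limma adjusted p of RING1 was 0.0519. FPKM without counts leaves the precision of low genes such as EZHIP unknown.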

Other observations

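BAZ2B, a bromodomain gene of a chromatin remodelling family, had 0.096, 0.144 and 0.133 FPKM in the DMSO samples and 0.111, 13.1 and 13.4 FPKM in the BCT samples. BCT replicate 1 lay within the DMSO range and the other BCT samples far above it. BAZ2B passed the filter of a mean of 1 FPKM only through those other samples, and is among the 10 bromodomain genes called higher. The log2 change was 3.90 (SE 1.41, limma adjusted p = 0.0307), and the call was lost under 10 of 21 alternatives. Without BCT replicate 1 the change was 5.90, and without BCT replicate 2 or 3 it was 2.92 or 2.90 and not called. The call was also lost without any 1 of the DMSO samples.

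Luminal prostate genes moved apart. Of 9 such genes, 2 were called lower, KLK3 (-2.95) and KLK2 (-1.61), and 2 were called higher, the keratins KRT18 (1.72) and KRT8 (1.17). Of the markers of other cell types, COL1A1 (1.95) and CD68 (1.31) were called higher.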
